A study of Mus musculus with 4 samples.

Results

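The genes Sst, Npy, Vip, Cck and Cort, whose peptides mark classes of cortical interneurons, were followed over the brain of young mice. They were taken by symbol from the table of measured features, and 5 of its 19465 features carry these names. The sections came from male wild-type C57BL/6J offspring at postnatal day 21, cut coronally from formalin-fixed, paraffin-embedded brains and measured with the Visium array. Mothers ate a diet with 2 mg/kg folic acid (MF, 2 sections) or 20 mg/kg (HF, 2 sections), starting 2 weeks before mating and lasting until the end of lactation. Each section is 1 replicate, so a comparison of diets rests on 2 sections against 2.

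Most neurons of the cortex and hippocampus release glutamate, and a minority of interneurons release GABA onto them. Interneurons also store peptides in dense-core vesicles, and the peptide a cell makes is a common label of its class: somatostatin cells contact dendrites, VIP cells mainly contact other interneurons, and CCK basket cells contact cell bodies. Neuropeptide Y is shared by several classes, cortistatin is a close relative of somatostatin, and each peptide acts through receptors coupled to G proteins.

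Each array spot pools the RNA of several neighbouring cells, and spots lie 100 µm apart. After removal of 18 spots with few counts, 13452 remained. MF replicate 1 held 90098381 unique molecular identifiers (UMIs, the counted molecules) with a median of 23543.5 per spot. MF replicate 2 held 42423648 (median 12074.5), HF replicate 1 held 34983708 (median 9286) and HF replicate 2 held 42507273 (median 11831). MF replicate 1 was therefore the deepest section and HF replicate 1 the shallowest. The sections shared 2474 spot barcodes, as arrays of 1 design do. Levels are in CPM, the UMIs of a gene scaled to a fixed total of UMIs over the same spots. Spots were grouped by clustering and named from marker genes, with the 5 genes and their receptors kept out of the clustering. 2 clusters of all spots met no name and are called by their leading genes, the Six3-Trh spots and the Ttr-Gm5741 spots. Levels by area are a description without a test, and levels are not compared between genes.

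**Figure D1:**
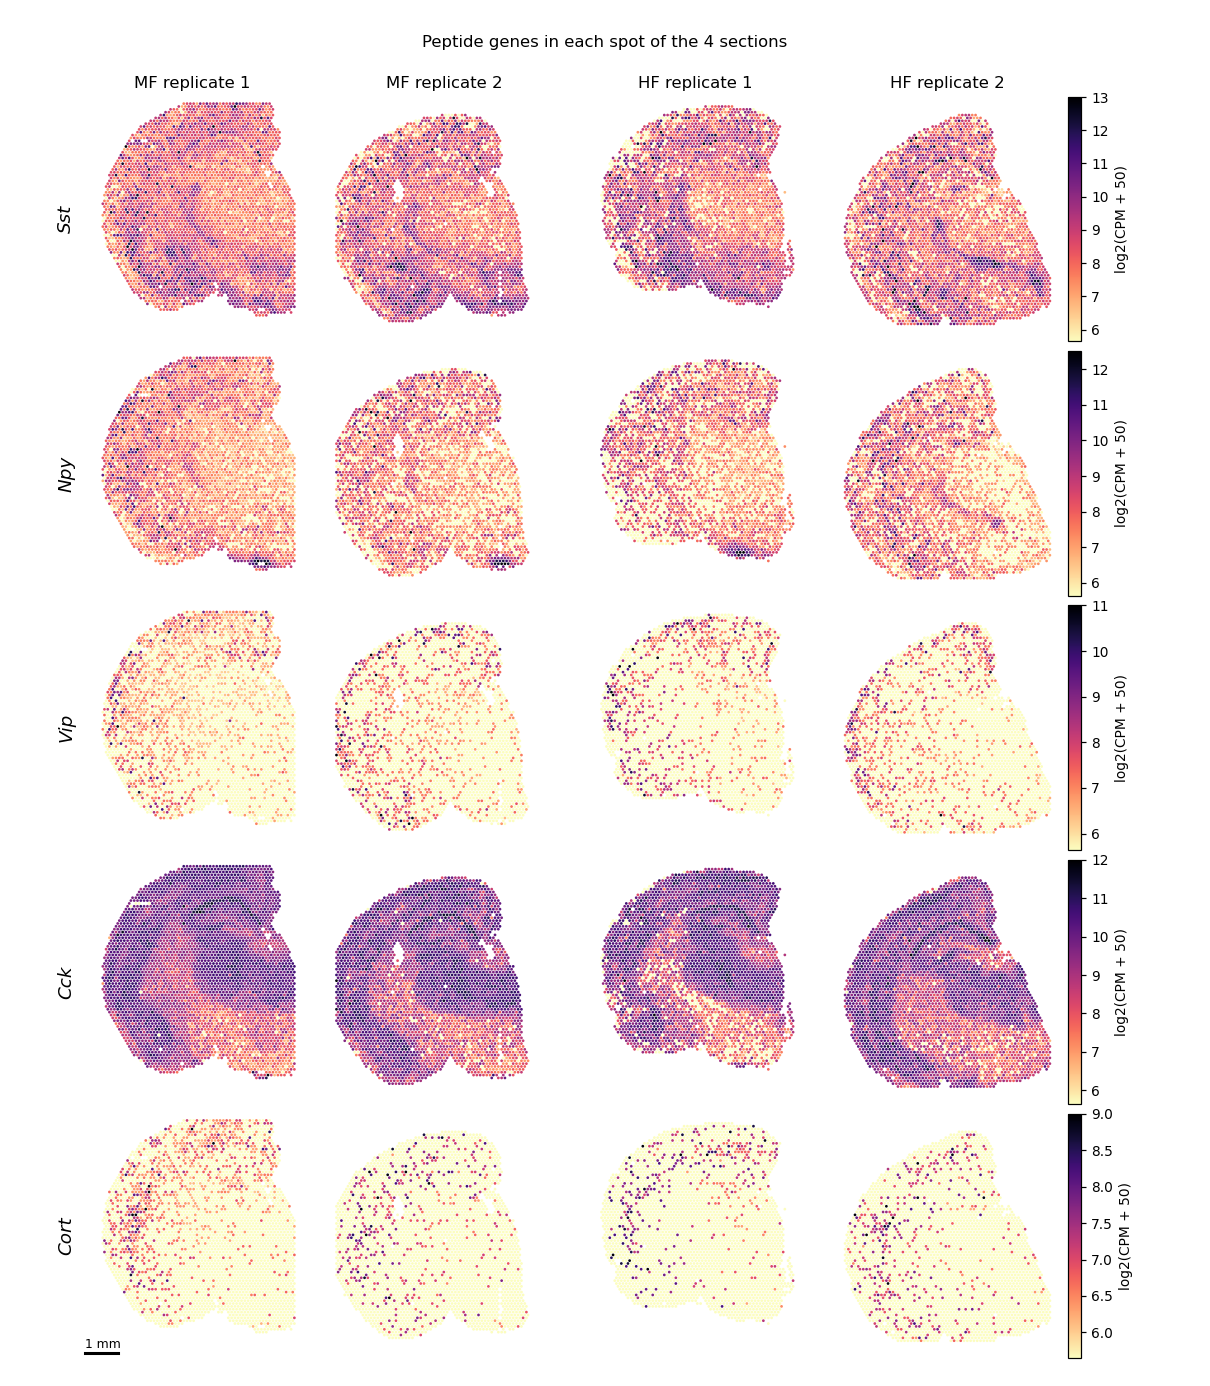
Level of each peptide gene (rows) in every spot of the 4 sections (columns), coloured by log2(CPM + 50), with a scale bar of 1 mm. Cck fills cortex, the pyramidal layer of CA1 and the thalamus, whereas Sst, Npy, Vip and Cort stand out in scattered single spots, and Npy also in a cluster of spots at the base of the hypothalamus in 3 sections.

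Sst encodes somatostatin, an inhibitory peptide of dendrite-targeting interneurons and of hypothalamic and other long-range neurons. In the cortex it had 558 and 637 CPM in MF and 669 and 619 CPM in HF. All 4 values lay close together and those of the diets overlapped. Within the cortex its mean was 411 ± 67.6 CPM (SD, n = 4 sections, as for all errors below) in layer 2-3 and 486 ± 71.5 CPM in layer 4. It was 637 ± 84.3 CPM in layer 5, 682 ± 119 CPM in layer 6 and 1101 ± 470 CPM in the thin layer 6b. The spots named layer 1 had 576 ± 107 CPM. Their leading genes include Ndnf and Gfap of the layer 1 markers but also Ptgds, Col1a1 and Vwf of meninges and vessels, so the name is approximate. The deep layers thus stood above layers 2-3 and 4 on average, although the ranges of the sections overlapped between every pair of neighbours in the order. The Six3-Trh spots headed that order at 1149 ± 291 CPM, with 807 and 1011 CPM in MF and 1426 and 1354 CPM in HF. Layer 6b came next, with 1212, 748, 722 and 1720 CPM in MF replicates 1 and 2 and HF replicates 1 and 2. The olfactory cortex and amygdala had 903 ± 153 CPM, the striatum 768 ± 163 CPM and the hypothalamus 676 ± 137 CPM. Areas outside the layered cortex thus reached levels like those within it. The hippocampal fields were low, at 313 ± 78.0 CPM in CA2-3, 276 ± 157 CPM in CA1 and 123 ± 35.6 CPM in the dentate gyrus, the lowest of 17 areas. The thalamus, which does not include the Six3-Trh spots, had 191 ± 19.3 CPM. In the broader dentate gyrus found at a lower resolution of the clustering, 0.5, the level was 248 CPM, above that of the thalamus.

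The cell-body layers were not where hippocampal Sst was highest. The hippocampal spots led by Thbs4 and P2ry12 had 419 and 761 CPM in MF and 979 and 1358 CPM in HF, and those led by Ndnf and Cxcl14 had 589 ± 224 CPM. The first of these means, 879 ± 394 CPM, was above every named field, although MF replicate 1 was much lower than the other sections. Both MF sections lay below both HF sections there, and these spots were not compared between diets. In the hypothalamus, Sst reached 1212 ± 448 CPM in the spots led by Ccdc42 and Gda, and 913, 1314 and 755 CPM in the arcuate nucleus of the 3 sections that had one.

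Npy encodes neuropeptide Y, made by several interneuron classes and by the hunger-promoting neurons of the arcuate nucleus. The arcuate nucleus, named in 3 sections, had 2402 and 2380 CPM in MF and 2016 CPM in HF replicate 1. HF replicate 2 held no spots of it. Among the areas present in all sections the order was nearly flat at the top. Layer 2-3 had 421 and 363 CPM in MF and 398 and 377 CPM in HF, a mean of 390 ± 25.0 CPM. It was followed by layer 1 (376 ± 115 CPM), layer 6 (365 ± 72.2 CPM), layer 6b (356 ± 176 CPM) and layer 4 (329 ± 35.4 CPM). Layer 5 was lower on average, at 269 ± 72.3 CPM, and the striatum had 283 ± 62.9 CPM. Neighbours in the order overlapped from layer 2-3 down to white matter (183 ± 23.9 CPM). White matter lay above CA2-3 in every section, at 121 ± 15.5 CPM there. CA1 had 94.3 ± 19.6 CPM, the dentate gyrus 75.2 ± 7.26 CPM and the thalamus 68.2 ± 11.6 CPM. At resolution 0.5 the dentate gyrus had 199 CPM, above CA1 and CA2-3 here. As for Sst, hippocampal Npy was higher outside these named fields, at 297 ± 79.6 CPM in the Thbs4-P2ry12 spots and 266 ± 44.2 CPM in the Ndnf-Cxcl14 spots.

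Vip encodes vasoactive intestinal peptide, the label of interneurons that inhibit other interneurons. It was highest in layer 2-3, with 135 and 205 CPM in MF and 224 and 134 CPM in HF. The mean there, 174 ± 46.6 CPM, exceeded that of layer 1 at 90.4 ± 20.8 CPM, and the 4 sections of the one did not overlap those of the other. Layer 4 had 90.0 ± 17.5 CPM, layer 5 had 55.3 ± 12.0 CPM and layer 6 had 47.3 ± 12.598 CPM. Below layer 2-3 every neighbour in the order overlapped. The hippocampal fields differed: CA1 had 56.0 ± 34.2 CPM, whereas the dentate gyrus had 12.99 ± 12.1 CPM and CA2-3 had 8.62 ± 2.21 CPM. The CA1 mean was carried by HF replicate 1 at 107 CPM, beside 36.8, 34.8 and 45.5 CPM in the others. The striatum had 34.1 ± 6.10 CPM, the hypothalamus 11.9 ± 2.43 CPM and the thalamus 9.50 ± 2.70 CPM.

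Cck encodes cholecystokinin, which basket cells make but which many glutamatergic neurons of cortex, hippocampus and thalamus also make. CA1 was highest, with 2278 and 2374 CPM in MF and 2178 and 2191 CPM in HF, and stood clear of all other areas. CA2-3 followed with 1571 and 1672 CPM in MF and 1464 and 1440.5 CPM in HF, and overlapped layer 2-3. The dentate gyrus had only 424 ± 93.4 CPM, so the fields of the hippocampus spanned a wide range. Layer 2-3 had 1409 ± 24.2 CPM and did not overlap the next area, layer 6b at 1246 ± 34.9 CPM. Layer 6 had 1225 ± 48.1 CPM, layer 4 had 1077 ± 38.2 CPM, layer 5 had 1027 ± 114 CPM and layer 1 had 742 ± 37.9 CPM. Neighbours from layer 6b to layer 5 overlapped, while layer 1 lay below layer 5 and above the meninges in every section. The thalamus, at 1147 ± 114 CPM, was on the level of the cortical layers. The striatum had 440 ± 67.5 CPM. The hypothalamus had the lowest level of 17 areas, 243 ± 34.6 CPM, without overlap with the Six3-Trh spots above it (374 ± 61.2 CPM).

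Cort encodes cortistatin, which binds the somatostatin receptors. Its counts were low, and layer 6 led with 57.4 and 38.0 CPM in MF and 57.9 and 40.6 CPM in HF. Both diets thus held 1 higher and 1 lower section. Layer 6b had 45.2 ± 18.8 CPM, layer 5 had 27.0 ± 5.15 CPM, layer 2-3 had 26.8 ± 4.56 CPM, layer 4 had 19.5 ± 4.43 CPM and layer 1 had 15.5 ± 3.43 CPM. Every neighbour in the order overlapped. The striatum had 14.5 ± 3.95 CPM, CA1 had 10.96 ± 5.31 CPM, CA2-3 had 5.68 ± 4.19 CPM and the dentate gyrus had 4.47 ± 4.99 CPM. The hypothalamus, at 3.66 ± 0.946 CPM, and the thalamus, at 3.93 ± 0.870 CPM, were lowest. In CA2-3 of HF replicate 2 and in the dentate gyrus of 3 sections these levels rest on 1 UMI each.

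**Figure D2:**
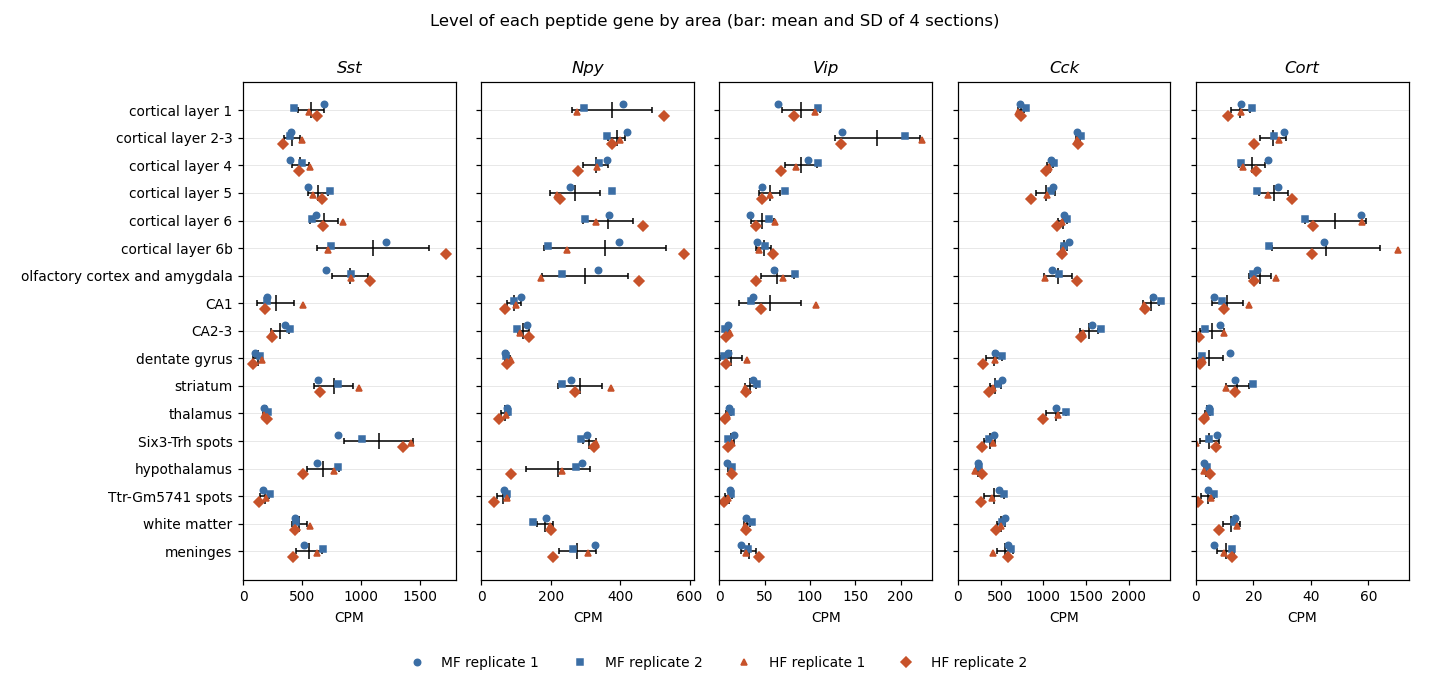
Level of each peptide gene in CPM (horizontal axis, from 0) in 17 areas (vertical axis), with 1 point per section and a bar for the mean and SD of the 4 sections. Vip peaks in layer 2-3 and Cck in CA1, Sst is higher in the deep than in the upper cortical layers, Cort is highest in layers 6 and 6b, and Npy is nearly level over the cortex.

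The cortical profiles were also read by distance to the edge of the section, in bins of 200 µm, over 577 to 851 spots of named layers per section. Sst had a mean of 389 ± 84.2 CPM within 200 µm of the edge, 701 ± 41.0 CPM from 600 to 800 µm and 814 ± 230 CPM from 1000 to 1200 µm. Cort had 19.9 ± 1.78 CPM in the first bin and 61.2 ± 15.9 CPM in the last. Vip ran the other way, from 166 ± 48.4 CPM in the first bin to 32.8 ± 14.3 CPM in the last. Between them it had 132 ± 16.6 CPM from 200 to 400 µm and 79.4 ± 15.7 CPM from 400 to 600 µm. By area, in contrast, Vip was lower in layer 1 than in layer 2-3. The first and last bins did not overlap for any of these 3 genes. In MF replicate 2 the last bin had only 9 spots, with 22 UMIs of Sst, 4 of Npy, 2 of Cort and 1 of Vip, beside 58 to 78 spots in the other sections. Cck peaked between 200 and 400 µm at 1312 ± 22.3 CPM and had 964 ± 66.4 CPM nearer the edge. For Npy the first bin had 360 ± 62.9 CPM and the last 417 ± 229 CPM, and the sections overlapped through MF replicate 2, at 92.3 CPM in the last bin. The other 3 sections, at 437 to 620 CPM, lay above every value of the first bin. The bins stand for layers only roughly. Layer 1 lay at a median distance of 137 µm, layer 2-3 at 265 µm and layer 4 at 478 µm. Layer 5 lay at 619 µm and layer 6 at 910.1 µm, but layer 6b, the deepest layer, at 814 µm.

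**Figure D3:**
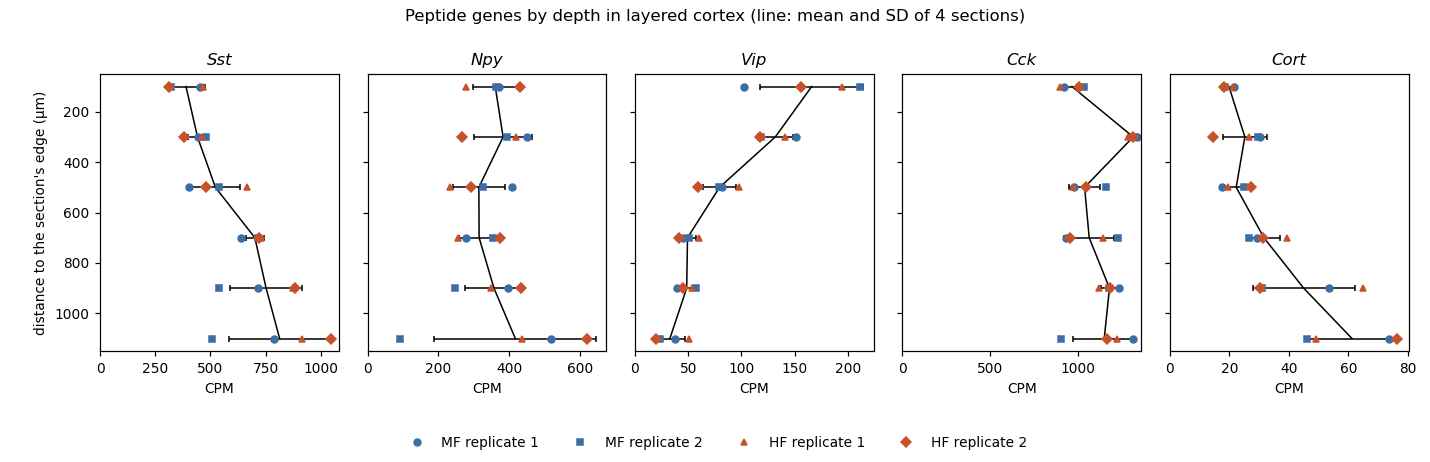
Level of each peptide gene in CPM (horizontal axis, from 0) against distance to the edge of the section in µm (vertical axis, edge at the top), with 1 point per section and a line for the mean and SD of the 4 sections. Sst and Cort are higher with distance from the edge, Vip is lower, and Cck is highest between 200 and 400 µm.

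The counts of each gene were also read from the richest spots. The richest 1% of the spots of a section held 5.10% to 6.46% of the Cck UMIs. They held 11.8% to 14.7% of the Sst UMIs, 17.7% to 21.9% of Npy, 22.3% to 27.7% of Vip and 22.9% to 23.3% of Cort. Such a share is higher where a gene has few counts, and Cort had 465 to 1487 UMIs per section beside 29506 to 80535 of Cck, so the genes are not ranked by it. Single spots reached 250 UMIs of Sst, 381 of Npy, 43 of Vip, 171 of Cck and 56 of Cort, all in MF replicate 1. The richest spot for Npy lay in the arcuate nucleus in the 3 sections that had one, that for Cck in CA1 or CA2-3 in every section, and that for Cort in layer 6 in 3 of 4. Those for Sst and Vip lay in a different area in each section.

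The share of spots with at least 1 UMI followed depth. For Vip it was 38.9% and 27.3% in MF and 22.1% and 23.96% in HF over the whole section. With every spot thinned to 5000 UMIs it was 13.04% and 14.7% in MF and 13.7% and 12.7% in HF, and MF replicate 1 no longer led. In layer 2-3 the thinned share for Vip was 35.3% and 36.3% in MF and 41.0% and 40.6% in HF, against 5.50%, 6.61%, 5.12% and 3.25% in the thalamus, taken as its background. For Cort the thinned share in layer 6 was 17.7% and 14.3% in MF and 21.3% and 13.4% in HF. The hypothalamus served as its background, with 0.638% and 2.82% in MF and 0.947% and 1.205% in HF. Thinned shares over the whole section were 72.5% to 77.7% for Sst, 46.6% to 51.6% for Npy and 87.3% to 90.7% for Cck. Low levels can also come with RNA of another area in the section: Pmch, the gene of a lateral hypothalamic peptide, had 157, 110.1, 44.7 and 0.223 CPM in the cortex of MF replicates 1 and 2 and HF replicates 1 and 2, beside 3338, 2088, 1462 and 2.26 CPM in the hypothalamus. Its cortical level was low where its hypothalamic level was low, and spread of RNA between spots was not tested.

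Company kept by each peptide in single spots was read from the richest 2% of cortical spots, 17 to 25 per section, against the other cortical spots. Spots rich in Sst held 8.01 times the Npy of the others (5.56 to 10.6 over the sections) and 6.00 times the Cort (3.94 to 9.25). They also held 8.60 times the Crhbp (8.02 to 9.29), a binding protein of corticotropin-releasing hormone, 4.99 times the Nos1 (1.96 to 8.12), which makes nitric oxide, and 2.38 times the Lhx6, a transcription factor of this lineage. Vip was lower there in 4 of 4 sections, at 0.634 times. Spots rich in Npy were a similar set of neighbours, with 5.11 times the Sst (3.32 to 6.35), 6.16 times the Nos1, 2.93 times the Cort and 3.27 times the Kit, a receptor tyrosine kinase. Spots rich in Cort had 3.52 times the Sst (2.52 to 4.85), 3.27 times the Npy and 3.31 times the Crhbp. Sst, Npy and Cort thus met in the same spots in every section.

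Vip and Cck each had other company. Vip-rich spots held 7.61 times the Crh (6.31 to 9.14), 6.03 times the Htr3a, a serotonin-gated channel, 3.74 times the Adarb2 and 2.62 times the calretinin gene Calb2. Sst was at 0.904 times and Lhx6 at 0.649 times. Cck-rich spots held 2.94 times the cannabinoid receptor gene Cnr1 (1.31 to 4.24) and 2.96 times the Slc17a8, a vesicular glutamate transporter of some CCK cells. Krt73 was at 10.8 times, with a range of 2.12 to 26.8 and 62 UMIs in all. The glutamatergic marker Slc17a7 was 1.12 times as high in Cck-rich spots, above the others in 4 of 4 sections, and lower in the spots rich in each other peptide in 4 of 4. Spots hold several cells, so a shared spot is not a shared cell.

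**Figure D4:**
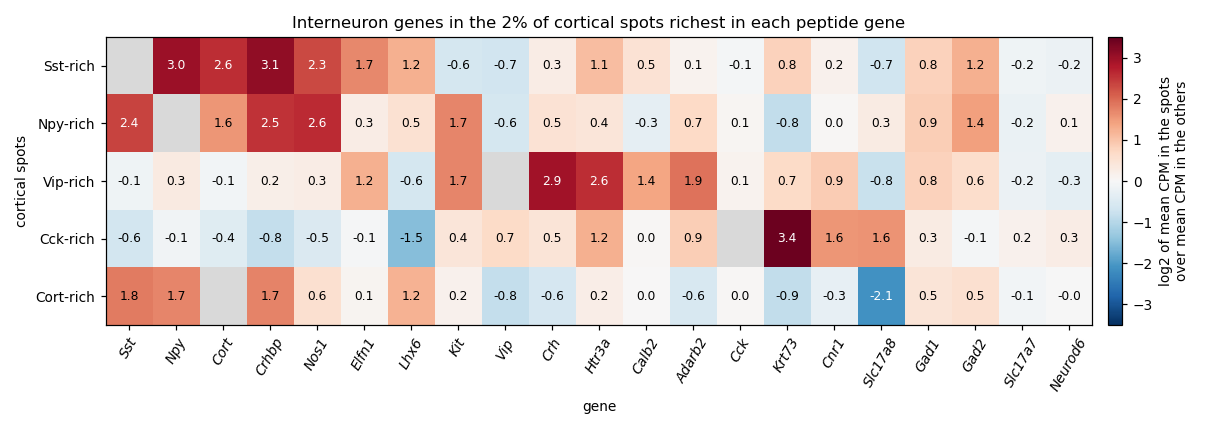
Interneuron genes (columns) in the 2% of cortical spots richest in each peptide gene (rows), as log2 of the mean CPM of 4 sections in these spots over that in the other cortical spots; a gene is not shown against itself. Sst, Npy and Cort are raised in each other's spots together with Crhbp, Crh and Htr3a are raised with Vip, and Cnr1 and Krt73 with Cck.

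Likeness to other genes was measured by the Pearson correlation. Over cortical spots thinned to 5000 UMIs, Sst and Npy had a mean r of 0.287 over the 4 sections (0.270 to 0.303). Npy and Cort had 0.145 (0.122 to 0.166), Sst and Cort had 0.132 (0.0751 to 0.200), and the other pairs of members lay between -0.041 and 0.0597. The genes nearest to Sst over these spots were Crhbp (0.291), Npy, Rab3b, Elfn1 and Gad2. For Npy they were Sst, Gad2, Crhbp, Cort and Kit, for Vip they were Tac2 (0.219), Crh, Htr3a, Adarb2 and Cxcl14, and for Cort they were Npy, Sst, Rbp4, Crhbp and Rab3b. Those of Cck, namely Lmo4 (0.184), Nrgn, Enc1, Pcsk2 and Vxn, include no interneuron gene of the lists. Spots of 1 section share their library and neighbours share tissue, so these values are descriptions. Over the means of 17 areas, which share sections and neighbouring tissue, Sst was nearest to Ptprt (r = 0.933), Rpp25, Npy, Dlx1 and Gng4. Npy was nearest to Ptprt (0.906), Rpp25, Rasgef1c, Met and Btbd1, and Vip to Epop (0.924), Kif21b, Thrb, Kcnh3 and Col19a1. Cck was nearest to Reps2 (0.898), Khdrbs3, Rasgrp1, Dusp6 and Apba2, and the 2 genes nearest to Cort were Ttc9b (0.950) and Epop.

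The deposited table of spatial autocorrelation gives Moran's I, which is high where neighbouring spots have like counts. Cck had 0.707 and 0.609 in MF and 0.597 and 0.578 in HF, ranks 15, 19, 26 and 28 among 16731 to 18235 features. Sst had 0.341 and 0.300 in MF and 0.309 and 0.249 in HF, and Npy had 0.283 and 0.171 in MF and 0.192 and 0.252 in HF. Vip had 0.178 and 0.114 in MF and 0.123 and 0.168 in HF, and Cort had 0.192 in MF replicate 1 beside 0.0546, 0.0759 and 0.0798 in the others. All 5 genes had their highest value in MF replicate 1, the deepest section. Cck also had the most UMIs of the 5 in every section, so the genes are not ranked by this value.

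The genes lie on 5 chromosomes and no annotated gene overlaps them. In GRCm38, with GENCODE vM21, Sst (ENSMUSG00000004366) is at chr16:23889573-23890958 on the minus strand and Npy (ENSMUSG00000029819) at chr6:49822710-49829507 on the plus strand. Vip (ENSMUSG00000019772) is at chr10:5639218-5647617 on the plus strand. Cck (ENSMUSG00000032532) is at chr9:121489824-121495694 and Cort (ENSMUSG00000028971) at chr4:149125034-149126763, each on the minus strand.

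Several peptide genes are known targets of cyclic AMP signalling through the factor CREB, whose element is the palindrome TGACGTCA or its shorter form TGACG. The 250 bases before the start of each gene were therefore searched on both strands, and all 5 promoters were in the RefSeq table (GRCm38.p6). TGACGTCA contains TGACG and was counted under the longer word. Windows of 30 bases around the matches follow 5′ to 3′ on the strand of the gene, with the match in capitals (CGTCA is TGACG on the other strand).
Sst: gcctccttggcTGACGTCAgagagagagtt
Vip: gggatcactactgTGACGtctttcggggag
Cck: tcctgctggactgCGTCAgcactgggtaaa
Cort: gctccggcttgtgCGTCAccgcgtgagtgt
Counted from the start in RefSeq, the match begins 48 bases before Sst (window chr16:23890874-23890903), 79 before Vip (chr10:5639126-5639155), 47 before Cck (chr9:121495725-121495754) and 18 before Cort (chr4:149126765-149126794). Among 32851 promoters, 1.55% held TGACGTCA and 17.8% held TGACG. The start of Sst in RefSeq lies within the gene as GENCODE gives it, so this window is inside the positions above. For Npy neither word is in these bases. A match is a description of the sequence and was not tied to any level measured here.

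The first question on diet was whether the members differed between offspring of HF and MF mothers over the whole section. Sst had 443 and 532 CPM in MF and 514 and 511 CPM in HF, and Npy had 229 and 203 CPM in MF and 196 and 210.1 CPM in HF. Vip had 34.7 and 44.0 CPM in MF and 37.1 and 33.8 CPM in HF. For these genes the diets overlapped. Cort had 16.5 and 12.7 CPM in MF and 13.3 and 12.9 CPM in HF, and Cck had 894 and 894 CPM in MF and 843 and 774 CPM in HF. Cort overlapped through its MF replicate 2, and Cck was lower in both HF than in both MF sections. That pattern, HF below MF in all sections, held for 17.9% of the 14971 genes tested. UMIs summed per section were compared with the quasi-likelihood test of edgeR, with p adjusted over all genes tested, and a gene was called at an adjusted p under 0.05 and at least 1.2-fold. The log2 fold change (HF over MF) of Cck was -0.15 (SE 0.0685, adjusted p = 0.722). That of Sst was 0.06 (SE 0.0987, adjusted p = 0.907), and those of Npy, Vip and Cort were -0.10, -0.16 and -0.17, with adjusted p of 0.830, 0.795 and 0.807. Over spots thinned to 5000 UMIs that of Npy was 0.0006. No member was called (0 of 5, 0 of them at an unadjusted p under 0.05, and 0 with DESeq2), while edgeR called 0% of all 14971 genes, with 1020 at an unadjusted p under 0.05, and DESeq2 called 23. Fewer cells of a type and less RNA per cell cannot be told apart in these sums. With 2 sections per diet an exact test of the sections gives a two-sided p of 0.333 at the least.

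In the cortex the members were close between the diets. Npy had 336 and 287 CPM in MF and 289 and 354 CPM in HF, and Vip had 68.6 and 101 CPM in MF and 95.4 and 69.7 CPM in HF. For each gene the sections of the diets overlapped. Cck had 1161 and 1138 CPM in MF and 1093 and 1102 CPM in HF, so HF lay below MF, as for 20.4% of genes, by a log2 fold change of -0.06 (SE 0.0689, adjusted p = 0.883), but of 0.0064 over spots thinned to 5000 UMIs. Cort had 34.5 and 24.02 CPM in MF and 33.4 and 26.7 CPM in HF. The log2 fold changes were 0.12 for Sst (SE 0.0837, adjusted p = 0.785), 0.06 for Npy (SE 0.109), -0.02 for Vip and 0.01 for Cort (SE 0.167). None of the 5 was called in the cortex by edgeR, where 0.0442% of 13576 genes were, and DESeq2 called 0 of the 5. An unadjusted p under 0.05 in edgeR was found for 0 of the 5 and for 1034 of the 13576 genes.

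In the hippocampus Npy had 153 and 182 CPM in MF and 213 and 192 CPM in HF. Both HF sections were above both MF sections, a pattern of 17.2% of genes there, at a log2 fold change of 0.29 (SE 0.107, adjusted p = 0.512). Cck ran the other way, with 1239 and 1224 CPM in MF and 1141 and 1105 CPM in HF (-0.13, SE 0.0859, adjusted p = 0.744), as were 20.3% of genes. Sst had 284 and 435 CPM in MF and 473 and 389 CPM in HF, an overlap that leaves MF replicate 1 apart (0.28, SE 0.165, adjusted p = 0.710); the log2 fold change was -0.0351 over spots with all neighbours in the area and -0.0098 without MF replicate 1. Vip had 27.5 and 25.6 CPM in MF and 36.6 and 20.5 CPM in HF, and Cort had 13.4 and 12.5 CPM in MF and 13.5 and 8.87 CPM in HF. Their sections overlapped. None of the 5 was called by edgeR, where 0.0161% of 12408 genes were, and DESeq2 called 0 of the 5. Npy alone of the 5 had an unadjusted p under 0.05 in edgeR, as had 994 of the 12408 genes. Oligodendrocyte genes had lower sums in HF, opposite to Npy, and 0 were called: their summed level was 13069 and 12189 CPM in MF and 9387 and 7866 CPM in HF, 5 of 5 were below 0 in log2 fold change, Mbp was the most abundant and none was at 0. Immediate early genes, which answer to neuronal activity, ran with Npy, with sums of 492 and 533 CPM in MF and 910 and 1074 CPM in HF, 9 of 9 above 0 (median 0.62), Egr1 the most abundant and called alone, and none at 0. Their part in the result was not tested.

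In the striatum, Sst was among the values known when the genes were chosen, and it is given without a test: 632 and 803 CPM in MF and 984 and 652 CPM in HF, a log2 fold change of 0.19, or -0.12 without HF replicate 1 and -0.10 over spots with all neighbours in the area. The diets overlapped, and HF replicate 1 stood highest with 145 spots, the fewest of the sections. Npy had 257 and 231 CPM in MF and 374 and 271 CPM in HF. Cck had 516 and 472 CPM in MF and 409 and 363 CPM in HF, and Vip had 37.4 and 41.0 CPM in MF and 28.4 and 29.5 CPM in HF. Npy was thus higher in both HF sections and Cck and Vip lower, each without overlap; 18.1% of genes were so placed upward and 18.7% downward. The log2 fold changes were 0.37 for Npy (SE 0.135, adjusted p = 0.498), -0.36 for Cck (SE 0.113, adjusted p = 0.379) and -0.41 for Vip (SE 0.189, adjusted p = 0.623). Cort had 13.7 and 19.9 CPM in MF and 10.5 and 13.7 CPM in HF, from 10 to 60 UMIs per section. None of the 4 tested members was called by edgeR, where 0.112% of 11596 genes were, and DESeq2 called 0 of them. Npy, Cck and Vip had an unadjusted p under 0.05 in edgeR, as had 902 of the 11596 genes. Npy was called without HF replicate 2 (0.61), as were 35 of 11671 genes upward, and Cck without HF replicate 1 (-0.44), as were 128 of 12048 genes downward. Genes of striatal projection neurons had higher sums in HF here, and 0 were called: their sum was 2890.1 and 2434 CPM in MF and 3038 and 4063 CPM in HF, 6 of 6 were above 0 in log2 fold change (median 0.43), Ppp1r1b was the most abundant and none was at 0. Immediate early genes had sums of 337 and 402 CPM in MF and 728 and 807 CPM in HF, 9 of 9 above 0 (median 0.54), Egr1 the most abundant and called alone, and none at 0. Their part in the result was not tested.

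In the thalamus the members had lower means in HF than in MF. Npy had 74.6 and 76.2 CPM in MF and 70.9 and 51.1 CPM in HF, Vip had 10.0 and 12.97 CPM in MF and 8.45 and 6.59 CPM in HF, and Cort had 4.42 and 4.83 CPM in MF and 3.62 and 2.86 CPM in HF. Each of the 3 lay lower in both HF than in both MF sections, as did 17.5% of the 13365 genes tested. Their log2 fold changes were -0.30 (adjusted p = 0.717), -0.58 (SE 0.215, adjusted p = 0.656) and -0.49 (SE 0.249, adjusted p = 0.740). For Vip, the thalamus is the area taken above as background. Sst had 175 and 215 CPM in MF and 176 and 199.8 CPM in HF, and Cck had 1150 and 1269 CPM in MF and 1173 and 995 CPM in HF. The sections of Sst and Cck overlapped. All 5 members were below 0 in log2 fold change, with a median of -0.30 beside 0.00 over all genes, although Sst was above 0 without MF replicate 2 (0.0939) or HF replicate 1 (0.0409). None was called by edgeR, where 0% of genes were and 956 had an unadjusted p under 0.05; among the members this was Vip alone, and DESeq2 called none of them. Without HF replicate 1, Npy (-0.56), Vip (-0.76) and Cck (-0.28) were called lower, as were 543 of 13618 genes, with 458 called higher. Oligodendrocyte genes had sums of 23257 and 24843.5 CPM in MF and 19734 and 19596.5 CPM in HF, 5 of 5 below 0, 0 called, Mbp the most abundant and none at 0. Genes of striatal projection neurons had sums of 230 and 219 CPM in MF and 143 and 171 CPM in HF, 6 of 6 below 0 (median -0.33), 0 called, Ppp1r1b the most abundant and none at 0. Immediate early genes ran opposite to the members, with 8 of 9 above 0 (median 0.41) and 0 called. Their part in the result was not tested.

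In the hypothalamus Npy had 289.8 and 271 CPM in MF and 231 and 86.2 CPM in HF. HF replicate 2 was far below the other 3 sections, and both HF sections were below both MF sections, as for 17.3% of the 13317 genes tested. The log2 fold change was -0.84 (SE 0.362, adjusted p = 0.744). Without HF replicate 1, where HF replicate 2 stands alone for its diet, Npy was called lower at -1.71 (adjusted p = 5.22e-42, where other alternatives gave up to 0.9999), as were 429 of 13605 genes, and without HF replicate 2 the value was -0.30 (adjusted p = 0.0915). HF replicate 2 held 0 spots of the arcuate nucleus, where Npy was highest in the other sections, so the nuclei that a section held and its diet cannot be told apart in these values. Other hypothalamic peptides also set HF replicate 2 apart. Pmch had 3338 and 2088 CPM in MF, 1462 CPM in HF replicate 1 and 2.26 CPM in HF replicate 2, and Agrp had 92.8, 103, 94.3 and 0.602 CPM in the same order. Avp and Oxt, the peptides of magnocellular neurons, had 2182 and 2951 CPM in HF replicate 2 and no more than 2.70 and 15.03 CPM elsewhere. The 8 hypothalamic peptide genes summed to 3927, 2744, 1930.2 and 5253 CPM, with Pmch the most abundant in the mean of the sections and Oxt in HF replicate 2, none at 0, and 5 of 8 below 0 in log2 fold change. Their part in the result was not tested. Sst had 624 and 802 CPM in MF and 772 and 508 CPM in HF (-0.17, adjusted p = 0.868), and Cck had 238 and 253 CPM in MF and 199 and 282 CPM in HF. Vip had 8.35 and 13.4 CPM in MF and 12.4 and 13.5 CPM in HF, and Cort had 2.95 and 3.76 CPM in MF and 2.98 and 4.97 CPM in HF. These 4 overlapped. Without HF replicate 1, Sst was also called lower, at -0.49, and without HF replicate 2 its log2 fold change was 0.10. With all sections none of the 5 was called by edgeR, where 0% of genes were and 852 had an unadjusted p under 0.05. Of the members 0 had such a p, and DESeq2 called 0.

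No member was called by edgeR in a layer or field either. In CA2-3, Sst had 358 and 399 CPM in MF and 247 and 247 CPM in HF. Both HF sections lay below, as for 17.8% of the 8904 genes tested, at a log2 fold change of -0.59 (SE 0.129, adjusted p = 0.073). A single spot held 39.1% and 38.2% of these UMIs in MF and 8.72% and 21.2% in HF, and without it the levels were 225 and 259 CPM in MF and 245 and 199 CPM in HF, which overlap. Sst in CA2-3 was called over spots with all neighbours in any part of the hippocampus (-0.75) and without a filter on low counts (-0.58). It was also called with a replicate block (-0.61) or one with crossed numbers (-0.60), and without HF replicate 1 (-0.57). Over spots thinned to 5000 UMIs its log2 fold change was -0.12. In the fits that called it 24 of 7862, 26 of 14641, 24 of 8904, 21 of 8904 and 27 of 9764 genes were called lower. In CA1, Sst had 205 and 199.7 CPM in MF and 511 and 187 CPM in HF (0.69, SE 0.229, adjusted p = 0.568). Only HF replicate 1 was high, 1 of its spots held 53.2% of the UMIs, and 251 CPM were left without that spot; without HF replicate 1 the log2 fold change was -0.10. It was called without the filter on low counts (0.68, with 9 of 14401 genes called higher) and without HF replicate 2 (1.32, with 4 of 8683 called higher). Vip in CA1 was higher in both HF sections, as for 16.6% of genes, at 36.8 and 34.8 CPM in MF and 107 and 45.5 CPM in HF (0.93, SE 0.293, adjusted p = 0.538). Without HF replicate 2 it was called, at 1.55 (adjusted p = 0.00111), with 4 of 8683 genes called higher, and without HF replicate 1 the log2 fold change was 0.35. These levels rest on 19 to 47 UMIs per section. In the dentate gyrus Cck had 438 and 522 CPM in MF and 441 and 297 CPM in HF, which overlapped (-0.39, adjusted p = 0.731). Without HF replicate 1 it was called, at -0.65 (adjusted p = 0.00128), with 41 of 9817 genes called lower, and without HF replicate 2 the log2 fold change was -0.09.

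In cortical layer 6, Sst had 615 and 583 CPM in MF and 849 and 680.0 CPM in HF, higher in both HF sections, as for 16.7% of genes, at a log2 fold change of 0.35 (SE 0.103, adjusted p = 0.640). In layer 5, Npy had 255 and 375 CPM in MF and 219 and 228 CPM in HF, lower in both HF sections, as for 16.6% of genes (-0.45, SE 0.141, adjusted p = 0.902). In layer 6b, Npy had 398 and 193 CPM in MF and 247 and 585 CPM in HF, where the diets overlapped (0.62, SE 0.167, adjusted p = 0.195); it was called without MF replicate 1 (1.29, with 3 of 8618 genes called higher) and without HF replicate 1 (0.84, with 8 of 9289), and was -0.42 without HF replicate 2. With a replicate block Sst in layer 6 and Npy in layer 5 were called, at 0.35 and -0.46, with 16 of 11539 genes called higher and 9 of 10669 called lower. Sst in layer 6 was also called without HF replicate 2 (0.51, with 29 of 11724 genes called higher) and Npy in layer 5 without MF replicate 1 (-0.74, adjusted p = 0.00972, with 6 of 10936 called lower), while the former was 0.19 without HF replicate 1 and the latter -0.20 without MF replicate 2. Over the 15 areas, some of which contain others, 69 pairs of member and area were tested without the striatal value of Sst. In CA1 Cort had too few counts for the test, and in CA2-3 and the dentate gyrus Vip and Cort did. No pair was called by edgeR (0 of 69, with 16 at an unadjusted p under 0.05) or by DESeq2, while edgeR called 0.0954% of 165592 pairs of gene and area. The share of all genes with such a p was lowest in white matter (580 of 12676) and highest in layer 2-3 (913 of 11132). HF lay above MF without overlap in 6 of the 69 pairs and below in 21, where 17.7% and 18.1% of all pairs did so. Cck was below without overlap in the cortex, hippocampus, striatum, CA1, CA2-3, white matter and layers 4, 5, 6 and 6b. These areas share sections and spots and are not independent.

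Whether the diet difference itself varied between cortex, hippocampus, thalamus, hypothalamus and striatum was tested with area by diet terms in edgeR, with section as a block. For Npy, the log2 fold change relative to the cortex was 0.24 in the hippocampus and 0.28 in the striatum, but -0.40 in the thalamus and -0.98 in the hypothalamus. The span of 1.26 gave an unadjusted p of 0.000732 and an adjusted p of 0.185. The adjusted p was 0.574 for Vip, 0.8497 for Cck and 0.9004 for Cort. Sst is left out here, since its striatal value is a description. None of the 4 members was called, where 0.0432% of 13876 genes were and 1062 had an unadjusted p under 0.05; DESeq2 was not used for this test. Npy was called without HF replicate 1 (adjusted p = 5.91e-12, with 407 genes called) and without HF replicate 2 (adjusted p = 0.0017, with 52 called) but not without MF replicate 1 (adjusted p = 1). The fits other than that without HF replicate 2 include the hypothalamus of HF replicate 2 described above.

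Among 4 related ligands, Adcyap1, the PACAP gene of the VIP family, had 36.5 and 37.4 CPM in MF and 38.4 and 27.9 CPM in HF over the whole section. Pyy, Ppy and Gast, relatives of Npy and Cck that act mainly in the gut, had at most 0.488 CPM in a section. The lists of interneuron genes had no gene called over the whole section. Of 17 genes of GABA neuron identity, 12 were above 0 in log2 fold change over the whole section, with a median of 0.10 beside 0.00 over all genes. They summed to 978 and 950.1 CPM in MF and 991 and 1018 CPM in HF, and Gad2, which makes GABA, was the most abundant. In the thalamus 4 of 16 tested were above 0 (median -0.13), in the hypothalamus 13 of 17 (median 0.17) and in CA2-3 2 of 9 (median -0.34). In CA2-3, 5 of the 17 were lower in HF without overlap, as were 17.8% of all genes tested there. Of 20 genes of interneuron classes, 9 were above 0 over the whole section (median -0.01). In CA2-3 Calb2 was called lower in HF, with 97.0 and 77.8 CPM in MF and 38.1 and 47.0 CPM in HF (log2 fold change -1.05, SE 0.211, adjusted p = 0.0456), beside 0.0786% of genes called lower there. Both HF sections were below both MF sections. It was called under 6 of 12 alternatives, and not with DESeq2, library size alone or thinned spots, nor without MF replicate 1, MF replicate 2 or HF replicate 2. In these fits, in the same order, the log2 fold change of Calb2 was -1.03, -1.07, -0.99, -0.84, -1.12 and -1.25.

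The receptors were also read by area. Sstr4, a somatostatin receptor, had 309 and 366 CPM in MF and 372 and 392 CPM in HF in CA1, against a mean of 132 CPM in layer 5. Npy2r, a neuropeptide Y receptor of nerve endings, had 170.5 and 189 CPM in MF and 174 and 188.0 CPM in HF in CA2-3, but 14.96 CPM in the cortex. Npy1r had 104 ± 10.1 CPM in the dentate gyrus and Vipr2 had 7.90 ± 0.467 CPM in the thalamus. CA2-3 was low in Npy itself and the thalamus in Vip; these pairs were picked after their values were seen. In Vip-rich cortical spots, Npy2r was 2.29 times and Npy1r 1.99 times as high as in other cortical spots, in 4 of 4 sections, and Sstr2 was 0.613 times. Over the whole section Sstr5, Npy4r and Cckar had at most 0.541 CPM.

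Of the 13 receptors, Cckbr, the main cholecystokinin receptor of the brain, was called in layer 2-3, with 82.9 and 107 CPM in MF and 121 and 152 CPM in HF. Both HF sections were above both MF sections, and it was higher in HF by a log2 fold change of 0.61 (SE 0.137, adjusted p = 0.0235), where 0.216% of 11132 genes were called higher. It was called under 7 of 12 alternatives, and not with DESeq2, thinned spots or a Leiden resolution of 0.5, nor without MF replicate 1 or HF replicate 2. In these fits, in the same order, the log2 fold change of Cckbr was 0.57, 0.48, 0.60, 0.40 and 0.40. Cck itself was level there, with 1390 and 1443 CPM in MF and 1394 and 1408 CPM in HF (-0.00 in log2 fold change). In the hippocampus 9 of 9 tested receptors were above 0 in log2 fold change (median 0.19 beside -0.00 over all genes), and their sum was 364 and 396 CPM in MF and 442 and 418 CPM in HF. None of these was called, and Sstr5 was at 0. Of all 13 receptors, 4 were higher in HF without overlap and 2 lower, as were 17.2% and 20.3% of genes in the hippocampus. Elsewhere the receptors above 0 were 7 of 10 tested in the cortex, 6 of 9 in the striatum, 4 of 10 in the hypothalamus and 2 of 10 in the thalamus (median -0.09). Other genes were called in layer 2-3 as well. Of 9 immediate early genes 9 were above 0 in log2 fold change and 6 were called higher; they summed to 346 and 358 CPM in MF and 1021 and 1075 CPM in HF, with Egr1 the most abundant and none at 0. Of 5 oligodendrocyte genes 5 were called lower, as were 0.305% of all genes; they summed to 6664 and 6732 CPM in MF and 4608 and 3810.0 CPM in HF, with Mbp the most abundant and none at 0. Of 5 astrocyte genes 1 was called lower, with 5 of 5 below 0. Of 3 tested hypothalamic peptide genes 1 was called higher and 2 lower. The part of these lists in the result for Cckbr was not tested.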

How the data were processed

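Coronal brain sections of 4 mice were used, 2 per diet. As deposited, the matrices hold UMI counts per feature and spot, without normalization, which the authors made with Space Ranger from probe reads aligned to mm10. The deposited tables of spatial autocorrelation hold a score per feature, Moran's I, which is not scaled further. Image scale factors were not used. Section totals ran from 34983708 to 90098381 UMIs.

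Kept were spots with 500 UMIs and 250 genes or more, the limits of the study. Areas came from Leiden clustering at resolution 1 (2000 variable genes, 30 principal components, 20 neighbours; leidenalg 0.10.2, igraph 0.11.9, scikit-learn 1.9.0, numpy 2.4.6, scipy 1.17.1, pandas 2.3.3), with 67 listed genes kept out. A cluster was named from the area with the most markers among its 50 leading genes, at least 3 and more than any other area, and stayed unnamed where another area had more among the first 10. Compared between diets were the whole section, cortex, hippocampus, thalamus, hypothalamus, striatum, white matter, the cortical layers, CA1, CA2-3 and the dentate gyrus. Each had at least 10 spots in every section. Other areas, among them the Six3-Trh spots, the Ttr-Gm5741 spots, the olfactory cortex and amygdala and the meninges, were not compared. UMIs were summed per section and area and compared in R 4.3.3 with edgeR 4.0.16 (TMM, filterByExpr, Benjamini-Hochberg over all genes tested); the study instead tested single spots. DESeq2 1.42.0 was the other tool. Gene positions come from GENCODE vM21, which matched 19451 of 19465 features by identifier, and promoters from RefSeq.

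Members and lists were chosen with earlier results of these data known. Named are the members in the whole section and 5 large areas, elsewhere their highest and lowest levels and largest changes, and of the lists the most abundant, called or most changed genes. Genes most like a member are the 5 with the highest r, over areas among 10173 genes with at least 20 CPM in an area, as log2(CPM + 1), and over cortical spots thinned to 5000 UMIs; for Cort over areas the 2 nearest are given and the rest are not reported here. Receptor levels by area, Pmch in the cortex and Crhbp, Nos1 and other genes of peptide-rich spots were picked for the text after their values were seen.

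Alternatives were DESeq2, library size alone, no filter on low counts, a replicate block, spots thinned to 5000 UMIs, a Leiden resolution of 0.5, interior spots, the mean of the CPM of single spots, and each section left out in turn. For a cortical layer or hippocampal field, interior spots had all neighbours in any part of the cortex or of the hippocampus. A replicate block with crossed numbers was added after seeing the data. The methods were tested on simulated data.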

Additional observations from a re-analysis of the deposited data

How the results depend on the processing

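No member was called over the whole section under any alternative. For all genes the count there, 0, was 23 with DESeq2 and 5 without the filter on low counts, and ran from 0 to 1166 with 1 section left out (1 without MF replicate 2, 1166 without HF replicate 1, 840 without HF replicate 2). In such fits the lone section of a diet is assumed to vary like the others. The count of pairs of member and area called, 0, was 2 without the filter, 1 at a Leiden resolution of 0.5 (Npy in the dentate gyrus) and 1 over interior spots (Sst in CA2-3). Of all pairs of gene and area these settings called 0.332%, 0.102% and 0.134%, beside 0.0954% in the main analysis. It ran from 0 to 13 with 1 section left out, with 2 without MF replicate 1, 13 without HF replicate 1 and 5 without HF replicate 2, where 0.0716%, 2.18% and 1.28% of all pairs were called. Sst in the striatum, a description, is not counted. For the area by diet terms the members called, 0 of 4 without Sst, ran from 0 to 2 (Npy and Cck without HF replicate 1, and Npy, 1, without HF replicate 2); of all genes 6 were called, with 29 over thinned spots, 11 with library size alone, 407 without HF replicate 1, 52 without HF replicate 2 and 0 without MF replicate 1 or 2. The cause was not tested.

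The replicate block pairs sections by number. Over 14971 genes the differences between replicates 1 and 2 of the diets had r = -0.165. With it 3 pairs were called, Npy in layer 5, Sst in layer 6 and Sst in CA2-3, where 0.194% of all pairs were, and over the whole section 0 genes. The block with crossed numbers, added after seeing the data, called 1 pair of member and area (0.273% of all pairs), and 11 genes over the whole section.

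Of 37 log2 fold changes of members, 31 kept their sign under every alternative with all sections and 18 under all. Npy in layer 6b is not among the 37, and it ran from -0.42 to 1.29 with 1 section left out. Reversed over thinned spots were Npy in the whole section (0.0006), Cck in the cortex (0.0064) and Cort in the striatum (0.0883); with library size alone, Cort in the cortex (-0.0013); over interior spots, Cort in the cortex (-0.0226), Sst in the hippocampus (-0.0351) and Sst in the striatum (-0.10). The cause was not tested. With 1 section left out, values of both signs were found over the whole section for Sst (-0.0587 to 0.20), Vip (-0.32 to 0.018) and Cort (-0.34 to 0.0423); in the cortex for Npy (-0.11 to 0.20), Vip (-0.29 to 0.27) and Cort (-0.20 to 0.33); in the hippocampus for Sst (-0.0098 to 0.61), Vip (-0.37 to 0.44) and Cort (-0.54 to 0.035); in the thalamus for Sst (-0.20 to 0.0939); in the hypothalamus for Sst (-0.49 to 0.10), Vip (-0.0526 to 0.62), Cck (-0.32 to 0.20) and Cort (-0.16 to 0.59); in the striatum for Sst (-0.12 to 0.47); and in CA1 for Sst (-0.10 to 1.32). Of the listed genes called, Calb2 in CA2-3 was called under 6 of 12 alternatives and Cckbr in layer 2-3 under 7 of 12. Without HF replicate 2, where neither was called, their log2 fold changes were -1.25 and 0.40. In layer 2-3 the immediate early genes called higher, 6, were 2 with DESeq2 and otherwise 5 or 6, and the oligodendrocyte genes called lower, 5, were 2 with DESeq2 and otherwise 4 or 5. Of 85 levels, 77 stayed within 1 SD under every alternative with all sections, and 8 did not. At resolution 0.5 the dentate gyrus had 248 CPM of Sst, 199 of Npy, 556 of Cck and 9.54 of Cort, beside 123, 75.2, 424 and 4.47 CPM at resolution 1. Over thinned spots Cck was 2115 CPM in CA1 and 1030 CPM in layer 4, and the Six3-Trh spots had 286 CPM of Npy and 8.17 CPM of Cort. Not run were thinned spots in layer 1, where HF replicate 1 had 4 spots of that depth, layer 1 at resolution 0.5, where no such area was found, and interior spots in layer 6b (HF replicate 1, 6 spots) and CA1 (MF replicate 2, 7 spots).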

Other observations

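Only 2 sections stand for each diet, and the deepest of all was MF replicate 1, so depth and diet are in part joined. The sections did not hold the same areas to the same extent: the arcuate nucleus had 18, 16 and 11 spots in MF replicates 1 and 2 and HF replicate 1 and 0 in HF replicate 2, and the olfactory cortex and amygdala had 167, 138, 153 and 49 spots in the same order. Layer 6b had 14 spots in HF replicate 1. Litters, slides and batches are not given in the labels, and their part in the values was not tested. Areas named from markers were not checked against histology.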
